A study of Mus musculus with 18 samples.

Results

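The 5p and 3p products of the neural microRNAs (miRNAs) miR-218, miR-129, miR-9 and miR-153, 10 names in all, were followed through every group of a mouse small RNA sequencing study. The members were chosen by name, with earlier results of these data known. Of these 10 names, 9 had a row in at least 1 of the deposited tables, out of 1367 miRNAs listed in any of them, and miR-218-2-3p was not analysed here. The tables of the mouse embryonic fibroblasts (MEF) list 9 members and the table of the B cells lists 6.

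The study set out to compare cells with different amounts of miR-17~92, an oncogenic cluster of miRNAs that MYC activates. It comprises 18 libraries in 8 groups, 15 from MEF and 3 from B cells of the spleen, and the labels give Eu-myc mice as the strain of all of them, a line whose MYC transgene is driven by the immunoglobulin heavy-chain enhancer and acts mainly in B-lineage cells. In MEF, the cluster was present between loxP sites (fl/fl), had been deleted (d/d) or was overexpressed (OV), with 3 libraries per group. A separate set took d/d MEF that carried an empty plasmid (Empty) or overexpressed miR-290~295, miRNAs typical of embryonic stem cells, with 3 libraries per group, so that both of its groups lack miR-17~92. The B cells were fl/fl, d/d or OV, with 1 library each. Libraries are named as in the tables, OV1, OV2 and OV4, FL3 to FL5, DEL1 to DEL3, E1 to E3 and miR-290 1 to 3. Neither the animals, their age, the Cre or vector used, nor whether replicates were separate cultures is stated in the labels, so the p-values measure only the spread between these libraries, which may be technical.

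MiRNAs are cut as a pair of arms, 5p and 3p, from a hairpin in a longer transcript, and usually 1 arm is loaded into Argonaute while the other is degraded. The loaded arm finds its targets mainly through its seed, bases 2 to 8. MiR-9 is known from neural progenitors and neurogenesis, miR-218 from motor neurons, miR-129 from neurons and miR-153 from brain and neuroendocrine cells. MiR-218 is also made outside the nervous system, because its genes lie in introns of Slit2 and Slit3, which encode guidance ligands for Robo receptors that many mesenchymal cells express. MiR-9 is also known in B cells, where it can repress Prdm1, the gene for a plasma-cell transcription factor.

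The mature sequences decide which gene a read can be assigned to, so they are shown 5′ to 3′ from RefSeq (GRCm38.p6), with the seed in capitals. Of the 10 names, 9 matched this table. The full names carry the mouse prefix mmu, left out elsewhere.
mmu-miR-218-5p: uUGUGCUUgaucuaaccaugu
mmu-miR-218-1-3p: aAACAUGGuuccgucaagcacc
mmu-miR-218-2-3p: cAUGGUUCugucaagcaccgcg
mmu-miR-129-5p: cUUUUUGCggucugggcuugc
mmu-miR-129-2-3p: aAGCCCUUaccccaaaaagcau
mmu-miR-9-5p: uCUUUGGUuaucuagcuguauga
mmu-miR-9-3p: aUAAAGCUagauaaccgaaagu
mmu-miR-153-3p: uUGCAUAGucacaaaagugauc
mmu-miR-153-5p: gUCAUUUUugugacguugcagcu

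The seeds of these 9 all differ. MiR-129-1-3p had no entry and was not compared in this way. MiR-218-5p shares its seed with miR-7002-3p and miR-218-1-3p shares its own with miR-496b. The other 7 share theirs with no other miRNA of the table.

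MiR-218-5p is identical from 2 genes, Mir218-1 in an intron of Slit2 (chr5:48223942-48224051, plus strand) and Mir218-2 in an intron of Slit3 (chr11:35616816-35616925, plus strand). Their 3p arms differ, with a longest exact shared run of 10 bases. Shifted against each other, the sequences match beyond that run as well, and miR-218-2-3p was not analysed here. Whether all reads named miR-218-1-3p come from the Slit2 copy is therefore uncertain. MiR-9-5p and miR-9-3p are each identical from 3 genes in non-coding transcripts and cannot be assigned to any of them. These are Mir9-1 in an intron of Gm3764 (chr3:88215598-88215686), Mir9-2 in an exon of C130071C03Rik (chr13:83738814-83738885) and Mir9-3 in an intron of Mir9-3hg (chr7:79505264-79505353). Mir153 lies in an intron of Ptprn2, which encodes a protein of secretory vesicles (chr12:117250817-117250885, plus strand). All positions are in GRCm38, with gene annotation from GENCODE.

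MiR-129-5p is likewise identical from 2 genes, Mir129-1 in an exon of the long non-coding RNA Gm3294 (chr6:29022619-29022691, plus strand) and Mir129-2 in an intron of Mir670hg (chr2:94241364-94241453, minus strand). Both hairpins are shown because their 3p arms are near-identical; capitals mark the 5p arm in both and the 3p arm in Mir129-2.
Mir129-1: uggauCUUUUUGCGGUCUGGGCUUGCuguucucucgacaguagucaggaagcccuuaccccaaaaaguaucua
Mir129-2: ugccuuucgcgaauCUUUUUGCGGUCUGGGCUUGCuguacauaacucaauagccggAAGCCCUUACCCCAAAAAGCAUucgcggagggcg
MiR-129-2-3p matched the Mir129-1 hairpin in 21 of its 22 bases, with the difference at position 20 from its 5′ end, outside the seed. The split of reads between miR-129-1-3p and miR-129-2-3p is therefore uncertain.

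Values are normalized counts, the reads on a miRNA divided by 1 size factor per library. Differences were tested with limma on log2(normalized count + 1), so a fold change is on that scale and understates the change of a low miRNA, and adjusted p-values are Benjamini-Hochberg over all kept miRNAs at a threshold of 0.05. Only miRNAs whose mean over a table reached 10 normalized counts entered the tests. In the miR-17~92 MEF set 662 of 1204 miRNAs were kept, 8 of the 9 listed members among them, miR-153-3p being left out. In the miR-290~295 set 840 of 1265 were kept, 7 of the 9 listed members among them, both arms of miR-153 being left out. In B cells 476 of 756 were kept, 5 of the 6 listed members among them, miR-129-1-3p being left out.

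The libraries of the miR-17~92 MEF set held 17191892 to 24920911 reads on listed miRNAs, those of the miR-290~295 set 43164128 to 58911475, and the B-cell libraries 10203586 to 10612256. The groups held the altered clusters as labelled. MiR-17-5p, of miR-17~92, had 9879 to 13434 normalized counts in OV MEF, 3029 to 3704 in fl/fl MEF and 37.2 to 53.0 in d/d MEF, and 197829, 56314 and 141 in OV, fl/fl and d/d B cells. MiR-294-3p, of miR-290~295, lay between 10.6 and 19.1 in Empty and 4221 and 5896 with miR-290~295. The low counts of miR-17-5p in that set also differed, at 23.3 to 40.7 in Empty and 2.12 to 7.22 with miR-290~295. The part of this difference in the results was not tested. Mesenchymal markers (miR-199a-3p, miR-199a-5p, miR-214-3p, miR-143-3p and miR-145a-5p, all 5 listed) summed to 1112360 to 1514020 in the first MEF set. Most of each sum was miR-143-3p, at 894530 to 1362800. The neuronal marker miR-124 had at most 2 reads of its 3p arm and 4 of its 5p arm in any library of that set, and both arms were at 0 in all 3 OV libraries. Haematopoietic markers (miR-142a-3p, miR-142a-5p and miR-150-5p, 3 of 4 listed) summed to 18 to 47 reads there.

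Loss of miR-17~92 went with lower miR-218, miR-9 and miR-153 in MEF, although the calls of miR-9 were lost in some alternatives. MiR-218-5p was lower in OV than in fl/fl as well, and miR-129-5p was higher both in d/d and in OV than in fl/fl. In OV against fl/fl, 3 of the 8 tested members rose, 1 fell and 4 did not pass, where 31.3% of all kept miRNAs passed. In d/d against fl/fl, 1 rose, 5 fell and 2 did not pass, where 58.3% of all kept miRNAs passed and 27.6% fell. In OV against d/d, 7 were higher in OV, none was lower and 1 did not pass, where 52.4% of all kept miRNAs passed, 26.7% higher and 25.7% lower in OV. These 3 comparisons share libraries pairwise, so they are not separate evidence. MiR-153-5p, miR-218-1-3p and miR-9-3p had d/d means below the minimum of 10 and entered the tests through OV and fl/fl. They are among the 5 that fell in d/d and the 7 that were higher in OV than in d/d. Those counts, and the medians of these comparisons, therefore lean on the filter and are no support for a shared fall of the members. The median difference of the members was 0.52, −0.90 and 1.27 on the log2 scale, beside −0.07, 0.02 and 0.02 for all kept miRNAs. With miR-290~295 in d/d MEF, 6 of 7 tested members rose, none fell and 1 did not pass, where 38.9% of all kept miRNAs passed, 16.7% upward and 22.3% downward. Their median was 1.19, beside 0.02 for all kept miRNAs. Since the arms of a hairpin are made together and 5p arms come from several genes, the members are not independent of each other.

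The split of calls over all miRNAs depended on the scaling between libraries. In OV against fl/fl it was 103 higher and 104 lower, 112 and 44 in the table scaled to spike-ins and 83 and 153 with medians re-centred. In d/d against fl/fl it was 203 and 183, then 147 and 283, and 162 and 245. In OV against d/d it was 177 and 170, and 333 and 120 with spike-ins, and with miR-290~295 it was 140 and 187, and 56 and 331 with spike-ins. In the spike-in tables the median of all miRNAs was 0.07 in OV against fl/fl, −0.39 in d/d against fl/fl, 0.60 in OV against d/d and −0.46 with miR-290~295. With medians re-centred it was −0.20, −0.27, 0.18 and −0.08.

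MiR-218-5p, the loaded arm of miR-218, ranked 78th of 1204 listed miRNAs in fl/fl MEF. Its normalized counts were 15451, 14955 and 15384 in FL3, FL4 and FL5, 10961, 8760 and 10279 in OV1, OV2 and OV4, and 3988, 4226 and 4051 in DEL1, DEL2 and DEL3. The 3 groups did not overlap, with fl/fl highest and d/d lowest. It fell 3.73-fold in d/d against fl/fl (log2 −1.90 ± 0.11 SE, limma adjusted p = 6.78e-07) and 1.53-fold in OV against fl/fl (log2 −0.62 ± 0.11 SE, adjusted p = 0.00302), and was 2.44-fold higher in OV than in d/d (log2 1.28 ± 0.11 SE, adjusted p = 3.65e-06). In the spike-in table these differences were −2.33, −0.48 and 1.85, each past the threshold. Fewer cells that make a miRNA and less of it per cell cannot be told apart in such bulk libraries.

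MiR-218-1-3p, named for the 3p arm of the Slit2 copy, had few reads and followed the 5p arm in d/d. Its normalized counts were 48.1, 35.5 and 39.2 in FL3, FL4 and FL5, 32.7, 20.6 and 45.0 in OV1, OV2 and OV4, and 5.69, 4.36 and 4.25 in DEL1, DEL2 and DEL3. The d/d libraries, with 8, 6 and 4 reads, lay below all others, and OV and fl/fl overlapped. MiR-218-1-3p reached the minimum mean only through OV and fl/fl, so its tests against d/d carry that selection and are no separate support. It fell 7.26-fold in d/d against fl/fl (log2 −2.86 ± 0.32 SE, adjusted p = 3.25e-05) and was 5.63-fold higher in OV than in d/d (log2 2.49 ± 0.32 SE, adjusted p = 5.88e-05). Between OV and fl/fl the difference was −0.37 (95% interval −1.07 to 0.34, adjusted p = 0.389). Across the 9 libraries of this set both arms had Pearson's r of 0.96 on the log2 scale, a description over libraries that fall into 3 groups.

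**Figure D1:**
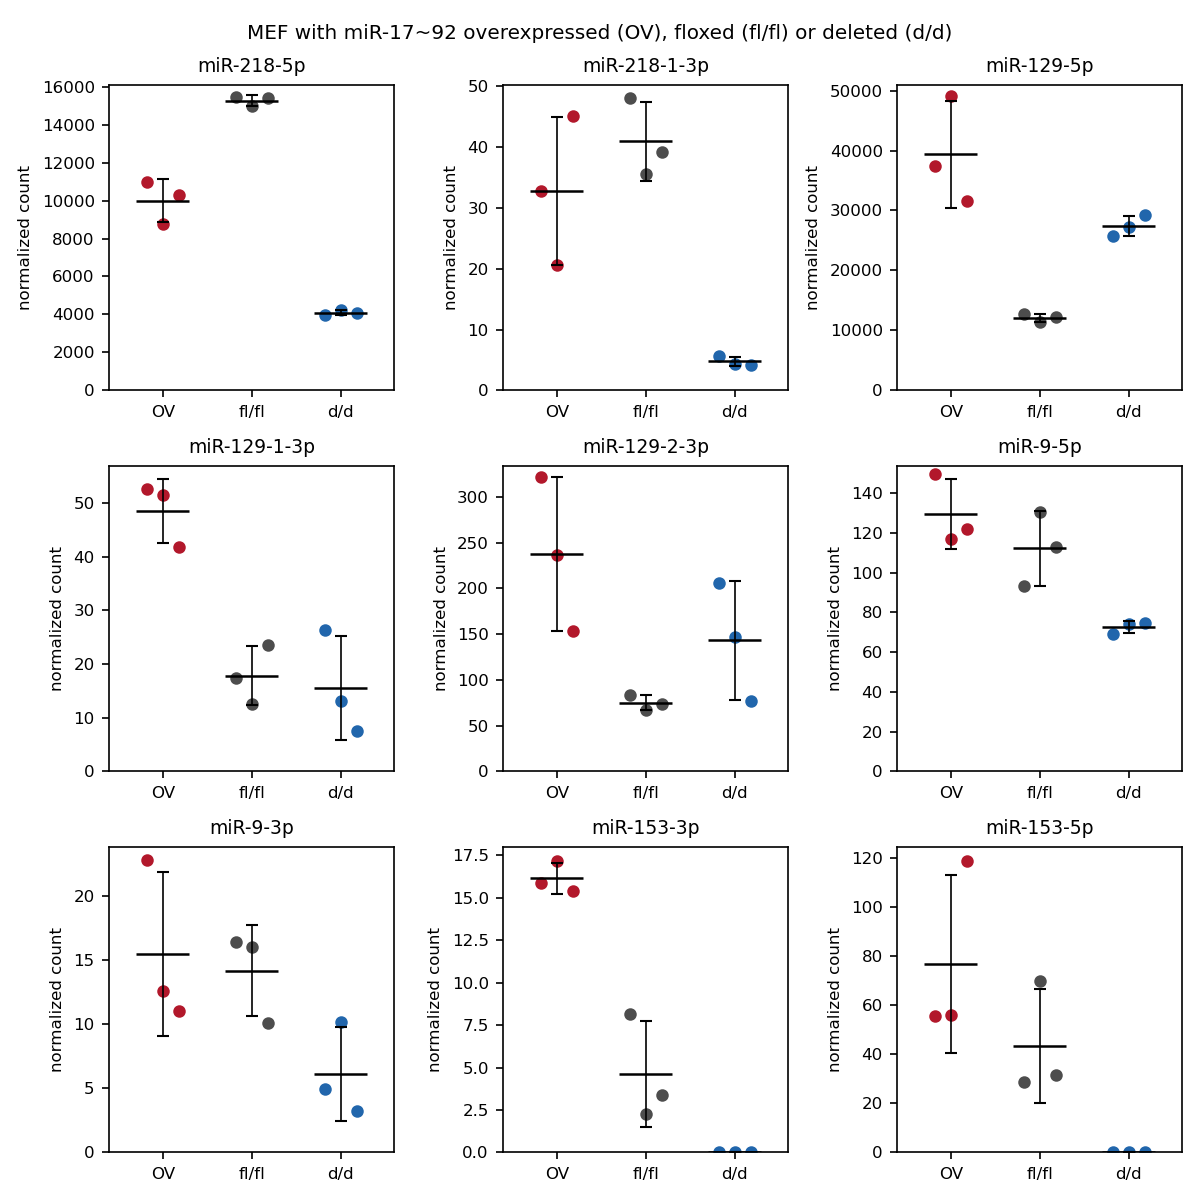
Normalized counts of each listed member in the 9 MEF libraries of the miR-17~92 set, on linear axes from 0. Points are libraries, the wide line is the mean and the bar 1 SD (n = 3 per group); miR-218-5p separates all 3 groups, with fl/fl highest, miR-129-5p separates them with fl/fl lowest, and both arms of miR-153 are at 0 in the 3 d/d libraries.

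MiR-129-5p was the most abundant member in OV and d/d MEF, ranking 48th and 59th of 1204, and in fl/fl MEF it ranked 86th, after miR-218-5p. Its normalized counts were 37390, 49120 and 31619 in OV1, OV2 and OV4, 25735, 27309 and 29198 in DEL1, DEL2 and DEL3, and 12783, 11391 and 12185 in FL3, FL4 and FL5. The groups did not overlap, and here fl/fl was the lowest. It rose 3.20-fold in OV (log2 1.68 ± 0.15 SE, adjusted p = 8.21e-05) and 2.26-fold in d/d (log2 1.18 ± 0.15 SE, adjusted p = 8.51e-05) against the same fl/fl libraries. It was 1.41-fold higher in OV than in d/d (log2 0.50 ± 0.15 SE, adjusted p = 0.0176), a call lost without DEL1 (adjusted p = 0.0618). With spike-ins these differences were 1.81, 0.75 and 1.07, and all 3 calls held.

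The 3p arms of miR-129, whose reads may be split between the Mir129-1 and Mir129-2 copies, were far less abundant. MiR-129-2-3p was at 321, 237 and 154 normalized counts in OV1, OV2 and OV4, 83.9, 67.6 and 73.9 in FL3, FL4 and FL5, and 206, 147 and 76.5 in DEL1, DEL2 and DEL3. OV lay above fl/fl without overlap, while d/d spread from the fl/fl range to the OV range. It rose 3.01-fold in OV against fl/fl (log2 1.59 ± 0.36 SE, adjusted p = 0.00793). In d/d against fl/fl the difference was 0.81 (95% interval 0.03 to 1.60, adjusted p = 0.0708), and edgeR on recovered reads (0.0445), DESeq2 (0.0278), a fit of these groups alone (0.0442) and a fit without DEL3 (1.21, 0.00804) put it past the threshold. OV against d/d gave 0.77 (adjusted p = 0.0928), past the threshold in the spike-in table (1.34, 0.00611), with medians re-centred (0.0163), without OV4 (0.0264) and without DEL1 (0.0297).

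MiR-129-1-3p was at 52.6, 51.5 and 41.7 normalized counts in OV1, OV2 and OV4, 17.4, 12.6 and 23.5 in FL3, FL4 and FL5, and 26.3, 13.1 and 7.44 in DEL1, DEL2 and DEL3. OV lay above every other library, and d/d and fl/fl overlapped. It rose 2.70-fold in OV against fl/fl (log2 1.43 ± 0.41 SE, adjusted p = 0.0231), a call lost without OV1 (0.0510), OV2 (0.0557), FL3 (0.0581) or FL4 (0.0785). It was 3.33-fold higher in OV than in d/d (log2 1.74 ± 0.41 SE, adjusted p = 0.00427). Between d/d and fl/fl the difference was −0.31 (95% interval −1.21 to 0.60, adjusted p = 0.541), and 0.10 without DEL3. Across the 9 libraries miR-129-5p had an r of 0.81 with miR-129-2-3p and 0.50 with miR-129-1-3p, again as a description.

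MiR-9 was scarce in MEF, where miR-9-5p ranked 342nd of 1204 in fl/fl. MiR-9-5p was at 150, 117 and 122 normalized counts in OV1, OV2 and OV4, 93.1, 131 and 113 in FL3, FL4 and FL5, and 69.0, 74.1 and 74.4 in DEL1, DEL2 and DEL3. The d/d libraries were below all others, and OV and fl/fl overlapped. It fell 1.53-fold in d/d against fl/fl (log2 −0.61 ± 0.18 SE, adjusted p = 0.0143), a call lost without FL4 (−0.50, adjusted p = 0.0655). It was 1.77-fold higher in OV than in d/d (log2 0.82 ± 0.18 SE, adjusted p = 0.00305). In the spike-in table these differences were −1.04 and 1.38. Between OV and fl/fl the difference was 0.21 (95% interval −0.20 to 0.61, adjusted p = 0.391).

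MiR-9-3p, the less abundant arm, had 3 to 23 reads per library in this set. Its normalized counts were 22.8, 12.6 and 11.0 in OV1, OV2 and OV4, 16.4, 16.0 and 10.1 in FL3, FL4 and FL5, and 4.98, 10.2 and 3.19 in DEL1, DEL2 and DEL3. The d/d libraries lay below OV and overlapped fl/fl through DEL2 and FL5. MiR-9-3p reached the minimum mean only through OV and fl/fl, so its tests against d/d carry that selection and are no separate support. It fell 2.27-fold in d/d against fl/fl (log2 −1.18 ± 0.44 SE, adjusted p = 0.0406) and was 2.40-fold higher in OV than in d/d (log2 1.26 ± 0.44 SE, adjusted p = 0.0345). Each call was lost in 7 of 15 alternatives. Against fl/fl these were those without FL3, FL4, DEL1 or DEL3, without a minimum, with edgeR and with DESeq2, at up to 0.137. Against OV they were those without OV1, OV2, DEL1 or DEL3, without a minimum, with DESeq2 and in a fit of these groups alone, at up to 0.118. OV and fl/fl differed by 0.08 (95% interval −0.90 to 1.07, adjusted p = 0.887), with the opposite sign without OV1 or FL5 and with medians re-centred.

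MiR-153 was the family with no reads in d/d MEF of this set. MiR-153-5p was at 55.6, 56.1 and 119 normalized counts in OV1, OV2 and OV4, 28.6, 69.9 and 31.3 in FL3, FL4 and FL5, and at 0 in DEL1, DEL2 and DEL3. OV and fl/fl overlapped, at a difference of 0.84 (95% interval −0.10 to 1.77, adjusted p = 0.145). Limma gave −5.35 for d/d against fl/fl (adjusted p = 4.62e-06) and 6.19 for OV against d/d (adjusted p = 1.06e-06). The size of these differences depends on the 1 added to each count. MiR-153-5p reached the minimum mean only through OV and fl/fl. A count of 0 was taken to allow at most 3 reads per d/d library. On that floor miR-153-5p was at least 17.3-fold lower in d/d than in fl/fl, and at least 30.7-fold higher in OV than in d/d. These floors cover counting error only.

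MiR-153-3p, the arm usually described as the functional one, was at 15.9, 17.2 and 15.4 in OV1, OV2 and OV4, 8.19, 2.29 and 3.36 in FL3, FL4 and FL5, and 0 in DEL1, DEL2 and DEL3. These levels, from 2 to 16 reads where present, were not tested. By the same floor the d/d mean was at least 1.84-fold below that of fl/fl, and that of OV at least 6.45-fold above d/d. The 5p arm had more reads than the 3p arm in all 6 OV and fl/fl libraries, 213 against 45 in OV and 117 against 13 in fl/fl.

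**Figure D2:**
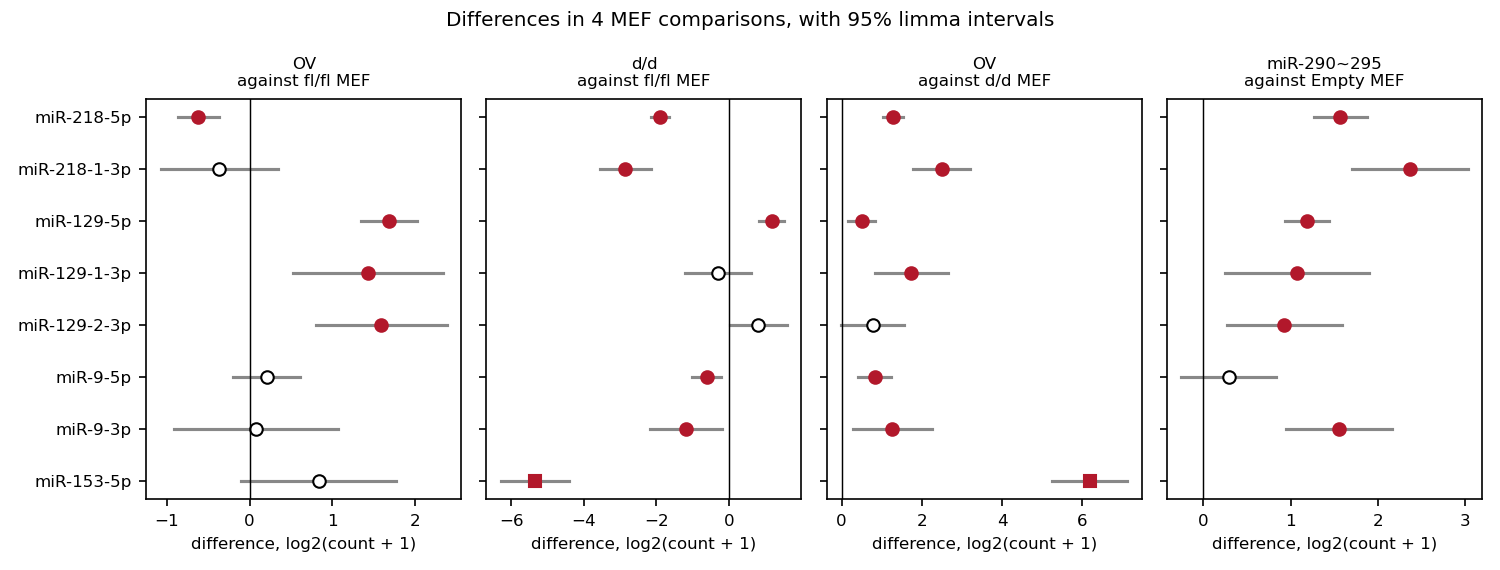
Differences of the tested members in 4 MEF comparisons, on the log2(normalized count + 1) scale with 95% limma intervals; filled symbols passed the threshold, open ones did not, squares mark miR-153-5p against a group with no reads, where the fitted value is no bound, and the panels have different axes. MiR-218-5p is below 0 in OV and d/d against fl/fl and miR-129-5p is above 0 in both; all members are above 0 in OV against d/d and with miR-290~295.

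In d/d MEF, overexpressed miR-290~295 went with higher miR-218, miR-129 and miR-9-3p. This set was normalized separately from the first, and its groups have d/d as their background, so levels are compared only within it. MiR-218-5p was at 18212, 20353 and 20935 normalized counts in E1, E2 and E3 and at 62551, 62481 and 52267 in miR-290 1, 2 and 3. The groups did not overlap, and it rose 2.97-fold (log2 1.57 ± 0.13 SE, limma adjusted p = 4.12e-05). MiR-218-1-3p was at 13.5, 16.8 and 26.2 in Empty and 98.6, 89.7 and 106 with miR-290~295. It rose 5.17-fold without overlap (log2 2.37 ± 0.29 SE, adjusted p = 0.000337).

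MiR-129-5p was at 88077, 86678 and 82735 normalized counts in E1, E2 and E3 and at 203854, 191420 and 192993 in miR-290 1, 2 and 3. The groups did not overlap, and it rose 2.28-fold (log2 1.19 ± 0.11 SE, adjusted p = 7.68e-05), to rank 38th of 1265. MiR-129-2-3p was at 856, 1087 and 1690 in Empty and 1724, 3143 and 2010 with miR-290~295, where the highest Empty library, E3, was just under the lowest of the other group. It rose 1.91-fold (log2 0.93 ± 0.29 SE, adjusted p = 0.0319). MiR-129-1-3p was at 72.0, 97.4 and 171 in Empty and 158, 341 and 210 with miR-290~295, with E3 above miR-290 1. It rose 2.10-fold (log2 1.07 ± 0.37 SE, adjusted p = 0.0439).

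Both 3p calls of miR-129 depended on the scaling and on which libraries were kept. That of miR-129-2-3p was lost in the spike-in table (0.45, adjusted p = 0.179) and without E1 (0.0690), E2 (0.0918), miR-290 2 (0.109) or miR-290 3 (0.0727). That of miR-129-1-3p was lost in the spike-in table (0.59, adjusted p = 0.156), without the same libraries (0.0991, 0.114, 0.152 and 0.108), with medians re-centred (0.0596) and without a minimum (0.0524). In the spike-in table miR-218-5p, miR-218-1-3p and miR-129-5p still rose, by 1.09, 1.90 and 0.71.

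Of the arms of miR-9, the 3p arm passed the test and the 5p arm did not. MiR-9-5p was at 192, 334 and 311 normalized counts in E1, E2 and E3 and at 315, 388 and 302 in miR-290 1, 2 and 3. The groups overlapped, at a difference of 0.29 (95% interval −0.25 to 0.84, adjusted p = 0.370), and −0.19 in the spike-in table. MiR-9-3p was at 14.6, 19.5 and 16.5 in Empty and 45.6, 52.6 and 55.8 with miR-290~295. It rose 2.94-fold without overlap (log2 1.55 ± 0.27 SE, adjusted p = 0.00224), and by 1.09 in the spike-in table.

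MiR-153 was near 0 in both groups. Its 5p arm had 8, 0 and 0 reads in E1, E2 and E3 and 4, 0 and 25 in miR-290 1, 2 and 3, and its 3p arm 0, 1 and 0 and 5, 2 and 2 reads. Neither arm was tested. The sum of the 5 mesenchymal markers, all listed, moved with this comparison as well. It was 2947170 to 4212110 normalized counts in Empty and 1817220 to 2092160 with miR-290~295, opposite in direction to the members that rose. Most of each sum was miR-143-3p, at 1426170 to 3432910 over both groups. The part of the sum in the result was not tested.

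**Figure D3:**
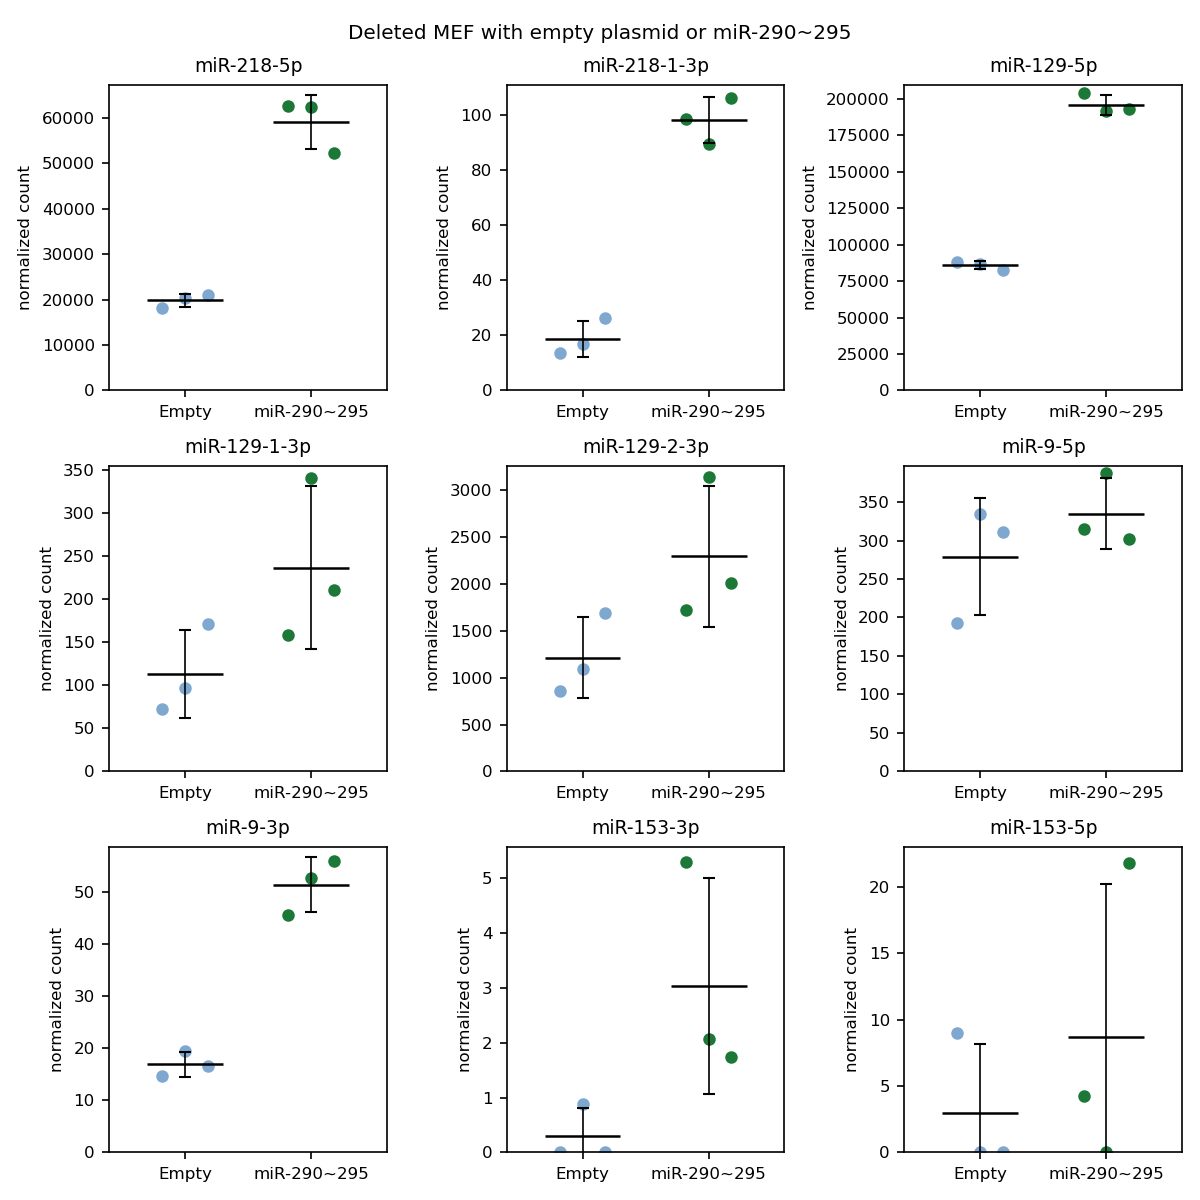
Normalized counts of each listed member in the 6 libraries of the miR-290~295 set, on linear axes from 0. Points are libraries, the wide line is the mean and the bar 1 SD (n = 3 per group). MiR-218-5p, miR-218-1-3p, miR-129-5p, miR-129-2-3p and miR-9-3p do not overlap between groups, and miR-129-1-3p, miR-9-5p and miR-153-5p do. MiR-153-3p does not overlap either, on at most 5 reads per library. The share of all kept miRNAs without overlap was not counted.

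The share of reads on the 3p arm was then compared, since it does not depend on the scaling between libraries. MiR-218-1-3p made up 0.310%, 0.237% and 0.254% of all miR-218 reads in FL3, FL4 and FL5, 0.298%, 0.235% and 0.436% in OV1, OV2 and OV4, and 0.142%, 0.103% and 0.105% in DEL1, DEL2 and DEL3. The d/d libraries lay below the others. The share was 0.0740%, 0.0826% and 0.125% in E1, E2 and E3 and 0.157%, 0.143% and 0.203% in miR-290 1, 2 and 3, without overlap. The two-sided exact permutation p was 0.1 for d/d against fl/fl, for OV against d/d and for miR-290~295 against Empty, the smallest that 3 libraries against 3 can give, and 0.267 after adjustment over 16 such tests. No share could therefore pass 0.05.

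The 3p share of miR-129 averaged 0.730% ± 0.226 in OV, 0.759% ± 0.0524 in fl/fl, 0.588% ± 0.304 in d/d, 1.53% ± 0.600 in Empty and 1.28% ± 0.454 with miR-290~295 (SD, n = 3 each), and overlapped in every comparison. Within the miR-129 3p reads, miR-129-1-3p took 9.45% ± 1.65 in d/d, 17.8% ± 3.65 in OV and 19.0% ± 4.50 in fl/fl, and 8.39% ± 0.723 in Empty and 9.22% ± 0.733 with miR-290~295. The d/d libraries, at 11.3%, 8.18% and 8.86%, lay below all OV and fl/fl libraries (exact permutation p = 0.1 against each, 0.267 adjusted). The 3p share of miR-9 was 12.6%, 11.9% and 15.6% in miR-290 1, 2 and 3 and 7.07%, 5.51% and 5.03% in E1, E2 and E3, without overlap (exact permutation p = 0.1, 0.267 adjusted). In the first set it was 7.64% ± 4.06 in d/d, 10.4% ± 2.54 in OV and 11.4% ± 3.41 in fl/fl, on 73 to 174 reads of both arms per library, and overlapped.

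**Figure D4:**
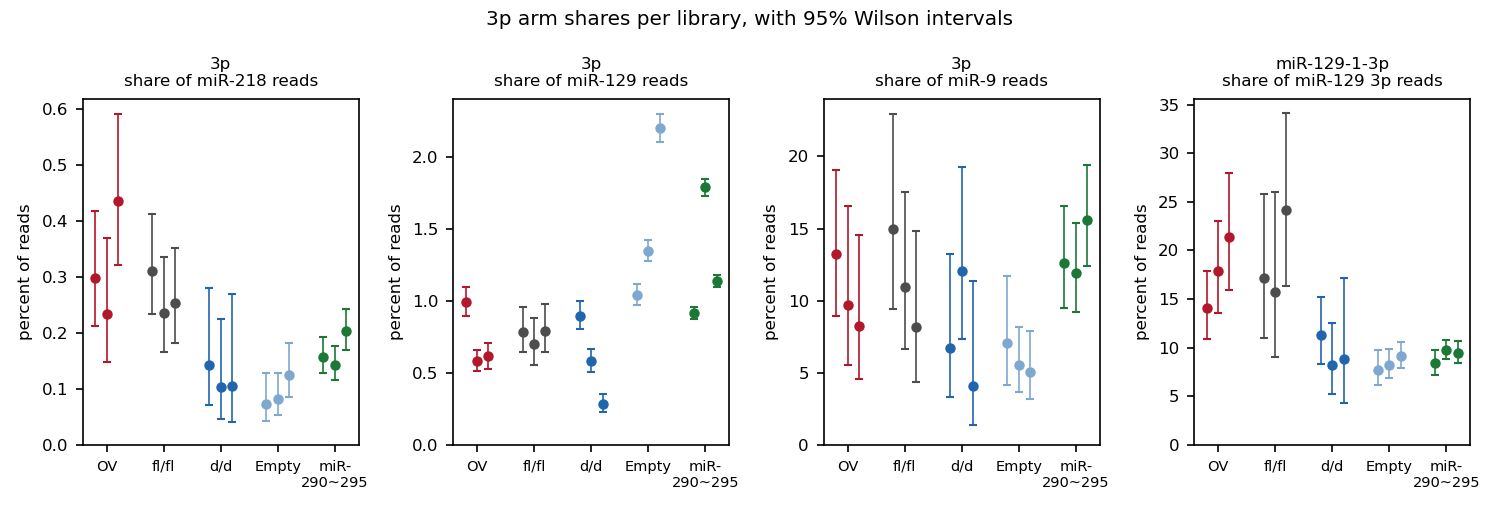
Percent of reads on the 3p arm of miR-218, miR-129 and miR-9, and percent of miR-129 3p reads on miR-129-1-3p, in the 15 MEF libraries. For miR-218 the 3p reads are those of miR-218-1-3p only. Points are libraries and bars are 95% Wilson intervals, which cover counting error only; the 3p share of miR-9 lies above 11% in all libraries with miR-290~295 and below 8% in all Empty libraries.

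In B cells the order of the families was different, with miR-9-5p the most abundant member. With 1 library per group no test was made, and the intervals of ratios below cover counting error only. MiR-9-5p was at 16619 normalized counts in fl/fl (17629 reads), 11983 in OV (8945 reads) and 1132 in d/d (1426 reads), ranking 47th, 55th and 122nd of 756. The d/d library stood far below the others, at 14.7-fold under fl/fl, a ratio of 0.0681 (95% interval 0.0645 to 0.0719), and the OV ratio to fl/fl was 0.721 (0.703 to 0.740). MiR-9-3p was at 206, 232 and 50.0 in fl/fl, OV and d/d. It was 4.11-fold lower in d/d than in fl/fl, at a ratio of 0.243 (0.181 to 0.324), and its share of miR-9 reads was 1.22% (Wilson 95% interval 1.07% to 1.39%) in fl/fl, 1.90% (1.64% to 2.20%) in OV and 4.23% (3.32% to 5.38%) in d/d.

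MiR-218-5p and miR-129-5p, few in B cells, stood higher in the d/d library. MiR-218-5p was at 92.9 normalized counts in d/d (117 reads), 13.2 in fl/fl (14 reads) and 9.38 in OV (7 reads), and its ratio of d/d to fl/fl was 7.04 (95% interval 4.03 to 13.3). MiR-129-5p was at 679 in d/d (855 reads), 90.5 in fl/fl (96 reads) and 97.8 in OV (73 reads), at a ratio of 7.50 (6.07 to 9.36). The ratios of OV to fl/fl, 0.710 (0.243 to 1.88) and 1.08 (0.786 to 1.48), were not distinguishable from 1 at this depth. MiR-129-2-3p had 27, 13 and 2 reads in d/d, fl/fl and OV, a ratio of 1.75 (0.872 to 3.69) for d/d and 0.219 (0.0240 to 0.966) for OV over fl/fl. MiR-129-1-3p had 0, 2 and 1 reads, and its count of 0 in d/d allows up to 2.38 normalized counts, the value of 3 reads.

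Of the 5 kept members, 2 were at least 2-fold higher and 2 at least 2-fold lower in d/d than in fl/fl B cells, where 16.2% and 18.1% of all kept miRNAs were. In OV, none was higher and 1 was lower by that fold, where 6.3% of all kept miRNAs were in each direction. The 5 mesenchymal markers summed to 8185 normalized counts in the d/d library, 2024 in fl/fl and 1937 in OV. Most of each of these sums was miR-143-3p, at 1088 to 5266. The 4 haematopoietic markers summed to 150806, 146247 and 140815. Nearly all of each sum came from the arms of miR-142a. Over the 3 libraries miR-150-5p was at only 8.73 to 71.0 normalized counts and miR-223-3p at 0 to 15.9. The mesenchymal sum thus moved with miR-218-5p and miR-129-5p, and its part in the result was not tested.

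**Figure D5:**
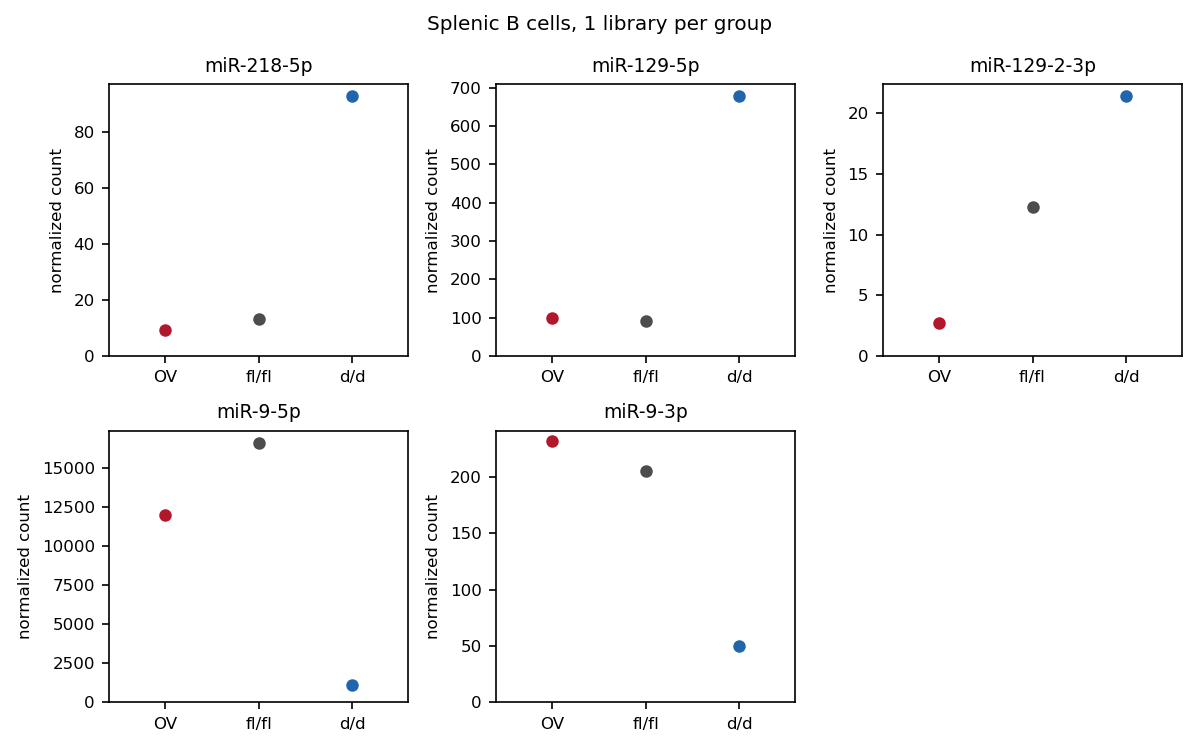
Normalized counts of the 5 kept members in the 3 B-cell libraries, 1 per group, on linear axes from 0, so there is no error between replicates. The d/d library is highest for miR-218-5p (92.9), miR-129-5p (679) and miR-129-2-3p (21.4) and lowest for miR-9-5p (1132) and miR-9-3p (50.0).

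The miRNAs whose levels ran most like those of the abundant members were named by Pearson's r on the log2 scale over the 9 libraries of the miR-17~92 MEF set, among 662 kept miRNAs. These libraries fall into 3 groups, so the values describe the order of the groups and have no p. For miR-218-5p they were miR-196a-5p (0.991), from the Hox clusters, miR-872-5p (0.985) and miR-210-3p (0.984), which hypoxia induces. For miR-129-5p they were miR-27b-5p (0.962), miR-27a-5p (0.946) and the cartilage miRNA miR-140-3p (0.946). For miR-9-5p they were miR-27b-3p (0.952), miR-20a-3p (0.946) and miR-18a-5p (0.938). The last pair belongs to miR-17~92, the altered cluster itself, and miR-18a-5p had mean normalized counts of 262, 90.6 and 2.50 in OV, fl/fl and d/d MEF.

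Other miRNAs known from neurons and glia were described by a list of 33 names. In OV against fl/fl, 1 of 14 tested rose and 5 fell, where 15.6% of all kept miRNAs rose and 15.7% fell, with a median of −0.58 beside −0.07 for all kept miRNAs. The CREB-responsive miR-212-5p fell by 1.64 (adjusted p = 8.21e-05) and its neighbour miR-132-5p by 1.26 (adjusted p = 0.00204). The oligodendrocyte miRNA miR-338-5p rose by 1.32 (adjusted p = 0.0137), a call lost without FL3 (0.0530). In d/d against fl/fl, 4 of 14 rose and 2 fell, where 30.7% of all kept miRNAs rose and 27.6% fell, with a median of 0.18 beside 0.02. MiR-149-3p and miR-149-5p rose by 2.08 (adjusted p = 0.000268) and 1.04 (adjusted p = 0.000102), and by 1.65 and 0.61 in the spike-in table. MiR-383-5p fell by 1.97 (adjusted p = 0.0024), and miR-338-5p by 1.13 (adjusted p = 0.0126), a call lost without DEL2 (0.0529). In OV against d/d 1 of 14 was higher and 10 were lower, where 26.7% of all kept miRNAs were higher and 25.7% lower, with a median of −0.59 beside 0.02. With miR-290~295, 3 of 17 rose and 2 fell, where 16.7% of all kept miRNAs rose and 22.3% fell, with a median of 0.25 beside 0.02, and the rise of miR-212-5p (0.62, adjusted p = 0.0115) was lost in the spike-in table (0.14, adjusted p = 0.607).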

How the data were processed

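Spike-ins were used with total RNA, from which small RNAs were cut from a gel and prepared with a NEBNext kit for small RNA, per the labels' protocols. The authors deposited normalized counts, used here as a signal in whole multiples of 1 step per library; the submitters' processing notes name DESeq2, with no version. Not given in the sources used here were the aligner, counting tool, annotation and table filter. All values gave whole reads within 0.0001. For miRNAs listed in both, the MEF tables with and without spike-in scaling differ by 1 factor per library. In the miR-17~92 set 1187 miRNAs are in both, of 1204 listed without and 1203 with spike-in scaling. The 33 columns of rlog values in the deposited tables were not used.

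The tables without spike-in scaling were tested with limma 3.58.1 in R 4.3.3 (mean-variance trend on log2 of normalized count + 1, mean of at least 10, Benjamini-Hochberg at 0.05), with 1 estimate of the spread per set. B cells, with 1 library per group, were not tested. Arm shares were compared by two-sided exact permutation tests over libraries. Alternatives were the spike-in tables, TMM, re-centred medians, pseudocounts of 0.5 and 5, no minimum or 100, each library left out, a replicate block, edgeR 4.0.16 and DESeq2 1.42.0. On recovered reads edgeR called 182, 391, 350 and 327 miRNAs where limma called 207 (OV and fl/fl), 386 (d/d and fl/fl), 347 (OV and d/d) and 327 (miR-290~295 and Empty). On simulated counts, 88.8% to 94.6% of changes of 1 on the log2 scale and 99.1% to 100.0% of changes of 2 were recovered. The simulation gave every miRNA the same dispersion, which was not fitted to these libraries. These percentages therefore may not hold for miRNAs that vary more between replicates. Counts of replicate libraries differed by more than sampling noise, so all were kept. The members and lists were chosen with earlier results of these data known. All 10 members were named, any miRNA of the other neural list that passed could be, and so were the 3 miRNAs most correlated with each of miR-218-5p, miR-129-5p and miR-9-5p. Sequences and hairpin positions came from RefSeq, and host genes from GENCODE.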

Additional observations from a re-analysis of the deposited data

Results flagged for a closer look

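The difference between d/d and fl/fl in miR-218-5p had opposite signs in MEF and B cells. In MEF the 3 d/d libraries were all below the 3 fl/fl libraries, at a log2 ratio of means of −1.90, while the d/d B-cell library was above the fl/fl one, at a log2 ratio of 2.82 on 117 and 14 reads. The difference between cell types was not tested, since B cells have 1 library per group. The sum of the mesenchymal markers, mostly miR-143-3p, was also higher in that d/d library, at 8185 against 2024 normalized counts.

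MiR-129-2-3p also differed in sign between cell types for OV against fl/fl. In MEF the 3 OV libraries were all above the 3 fl/fl libraries, at a log2 ratio of means of 1.66, while in B cells the OV library was below the fl/fl one, at −2.19 on 2 and 13 reads. This difference was not tested either. Groups of 3 libraries or fewer were not screened for outlying libraries.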

How the results depend on the processing

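Of 31 differences of single members in MEF, 19 kept their direction and their side of the threshold in all alternatives run, and 12 did not in at least 1 of them. The direction turned for 3, none of them past the threshold. These were miR-9-3p in OV against fl/fl (−0.048 with medians re-centred, and from −0.22 to 0.28 over all its alternatives, with −0.22 without OV1 and −0.13 without FL5), miR-129-1-3p in d/d against fl/fl (from −0.75 to 0.10 with 1 library left out, the latter without DEL3) and miR-9-5p with miR-290~295 (−0.19 in the spike-in table). The cause was not tested. Leaving out 1 library moved the count of miRNAs past the threshold in OV against fl/fl from 207 to between 124, without FL5 (72 higher and 52 lower), and 233. For the other counts no alternative moved it by over 1.5 times. Differences in arm shares that turned sign when 1 library was left out ranged, in percentage points, from −0.00084 to 0.10 for miR-218, −0.160 to 0.0432 for miR-129 and −2.54 to 0.846 for miR-9 in OV against fl/fl, from −0.00891 to 0.295 and −0.504 to 0.0847 for miR-129 in OV against d/d and with miR-290~295, and from −3.05 to 1.31 for the miR-129-1-3p share in OV against fl/fl. In B cells, shares of listed reads in place of normalized counts gave log2 ratios of −0.34 for miR-129-5p in OV (0.11 in normalized counts), −3.62 for miR-9-5p in d/d and −0.92 for miR-9-5p in OV, all against fl/fl. With the replicate number as a block, miR-290~295 against Empty had 298 miRNAs past the threshold in place of 327, and no member's call changed. The deviations of same-numbered libraries from their group means had correlations of 0.280, 0.0116 and −0.261, and not every library correlated best with its own. Whether a shared number marks a pair cannot be decided from 3 libraries per group. No paired analysis was possible in the miR-17~92 MEF set because the column names of OV and fl/fl libraries could not be matched to the replicate numbers of the labels. The share of miR-218-1-3p among both miR-218 3p arms was planned and not run, since miR-218-2-3p was not analysed here.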
